A study of Rattus norvegicus with 17 samples.

Results

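The hair shaft keratins and keratin-associated proteins (KAPs) are the structural proteins of the hair fibre, and their transcripts were followed in the meibomian gland (MG) of rats that overexpress the human mineralocorticoid receptor (MR) or not, with and without UVB exposure of the eyelid. Members were taken by name, as genes whose symbol begins with Krtap or is one of the hair keratins Krt31 to Krt36, Krt39, Krt40 and Krt81 to Krt86. Of the 17251 genes listed, 15 carried such a name, and the 14 with at least 1 TPM in at least 3 of 17 rats were kept, among 13105 genes that passed the same filter. TPM is a gene's share of all transcripts of a sample, corrected for transcript length, so levels can be compared between genes. The 14 members were 7 type I keratins (Krt31, Krt32, Krt34, Krt35, Krt36, Krt39 and Krt40), 6 type II keratins (Krt81 to Krt86) and 1 KAP (Krtap14). The gene just outside the filter was Krtap14l, with a highest value of 1.44 TPM and 2 rats at 1 TPM or more. Just inside it were Krt39, at 1 TPM or more in 14 rats, and Krt36, in 15 rats.

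RNA was sequenced from dissected MG of 17 female rats aged 10 to 12 weeks. By the study's methods, the rats were of Sprague-Dawley background. Control WT (n = 4) were wild-type rats without UVB and UVB WT (n = 3) were wild-type rats with 5 days of UVB on the eyelids. P1.hMR rats carry the human MR gene NR3C2 under its own P1 promoter, which is active wherever the receptor is made and not in the gland alone, and were studied without UVB (Control P1.hMR, n = 5) and after the same exposure (UVB P1.hMR, n = 5). By the study's methods, the upper eyelids were shaved before UVB, and shaving of the control rats is not stated, so UVB and shaving cannot be told apart here. NR3C2 was listed at 0 TPM in all 7 WT rats and at 5.31 to 9.31 TPM in the 10 P1.hMR rats, as the genotype labels say. The labelled tissue was checked with 22 lipid genes of meibomian and sebaceous cells, all of which passed the filter, with summed levels of 55778 to 71927 TPM per rat. The depth of each rat cannot be read from TPM, and the study's methods give the mapped reads only as a range over its libraries. In each rat, 12372 to 12737 genes reached 1 TPM.

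Hair is built in the follicle, where matrix cells divide around the dermal papilla and differentiate upward into medulla, cortex and cuticle of the shaft, enclosed by the inner root sheath. Trichocyte keratins are made in sequence along this path. An acidic type I and a basic type II chain pair to form each filament, and cysteine-rich KAPs fill the space between filaments and cross-link them through disulfide bonds. From work on the human follicle, Krt35 and Krt85 are the earliest, in matrix and precortex. Krt31, Krt34, Krt36, Krt81, Krt83 and Krt86 belong to the cortex, Krt32, Krt39, Krt40 and Krt82 to the cuticle, and Krt84 to the filiform papillae of the tongue. Eyelid tissue carries hair follicles beside the MG, and the MG itself is a holocrine gland without a hair shaft.

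The promoters of these genes are shown first, as a description of letters that the windows share. Whether these letters bear on the changes with UVB was not tested. RefSeq (build GRCr8) gave a window from 250 bases before to 50 bases after the start for 11 of the 14 members, and Krt81, Krt83 and Krt86 had no entry. The windows were searched on both strands for 5 motifs. The letters TATAAA stand for the TATA box, and other forms of this box were not searched. A variant of the site of the factor LEF1 is CTTTGAA, and the other form searched is CTTTGAT. The hair keratin element HK-1 is CTTTGAAG, which holds the first of these LEF1 forms within it. An adenine- and thymine-rich run, TTTTATG, was picked after the windows had been read. The 250 bases before the start are printed for a cuticle keratin, a matrix keratin and the KAP, 5′ to 3′ on the strand of the gene, with matches to any of these motifs on either strand in capitals. The printed window of Krt32 lies at chr10:85520979-85521228, Krt85 at chr7:134515787-134516036 and Krtap14 at chr11:41613719-41613968 of GRCr8, all on the minus strand.
Krt32: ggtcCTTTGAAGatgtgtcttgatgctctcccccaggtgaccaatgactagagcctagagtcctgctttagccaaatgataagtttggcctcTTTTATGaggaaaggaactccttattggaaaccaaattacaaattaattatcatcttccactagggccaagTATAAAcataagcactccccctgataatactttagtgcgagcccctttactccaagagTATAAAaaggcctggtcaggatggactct
Krt85: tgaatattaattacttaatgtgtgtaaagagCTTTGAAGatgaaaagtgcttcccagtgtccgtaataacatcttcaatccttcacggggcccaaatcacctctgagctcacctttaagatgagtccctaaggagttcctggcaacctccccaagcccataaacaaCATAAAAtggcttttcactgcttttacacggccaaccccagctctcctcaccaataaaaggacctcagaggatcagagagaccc
Krtap14: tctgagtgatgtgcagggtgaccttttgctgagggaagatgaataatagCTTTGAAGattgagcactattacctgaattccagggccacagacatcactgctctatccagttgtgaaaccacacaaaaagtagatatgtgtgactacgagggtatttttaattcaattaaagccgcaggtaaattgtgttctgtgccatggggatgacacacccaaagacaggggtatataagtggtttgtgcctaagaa
The cortex keratins Krt31, Krt34 and Krt36 are shown for the short stretch around the same element, which lies in the part of the window farthest from the start, with the element in capitals. The stretches come from the windows at chr10:85483301-85483550, chr10:85474502-85474751 and chr10:85540404-85540653, also on the minus strand.
Krt31: tggcttCTTTGAAGgtctacca
Krt34: tctgcctcCTTTGAAGccatctaa
Krt36: gactCTTTGAAGtggcaata

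CTTTGAAG was found in 7 of 11 member promoters (63.6%), against 1.56% of 27457 promoters in the reference table and 1.04% of the 9816 promoters of genes tested. In Krt31, Krt32, Krt34, Krt36, Krt85 and Krtap14 it stood on the strand of the gene, with its first base 246 to 201 bases before the start, and in Krt39 on the opposite strand with its first base 101 bases before it. The shorter CTTTGAA was in the same 7 promoters, against 5.31% of all promoters, and CTTTGAT was in 0 of 11, against 3.62%. TATAAA was in 7 of 11 (63.6%, all promoters 14.3%), and in Krt31, Krt32 and Krt34 a copy lay 31 to 29 bases before the start, a position (40 to 20 bases before the start, strand of the gene) held by 1.52% of all promoters. TTTTATG was likewise in 7 of 11 (all promoters 4.67%). Krt82, a cuticle keratin, had none of the 5 motifs in its window. The 7 type I keratins are related genes on chromosome 10, so the promoters counted are not 11 independent ones. A match of letters is a description and not a bound site, and elements farther than 250 bases from the start were not searched.

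**Figure D1:**
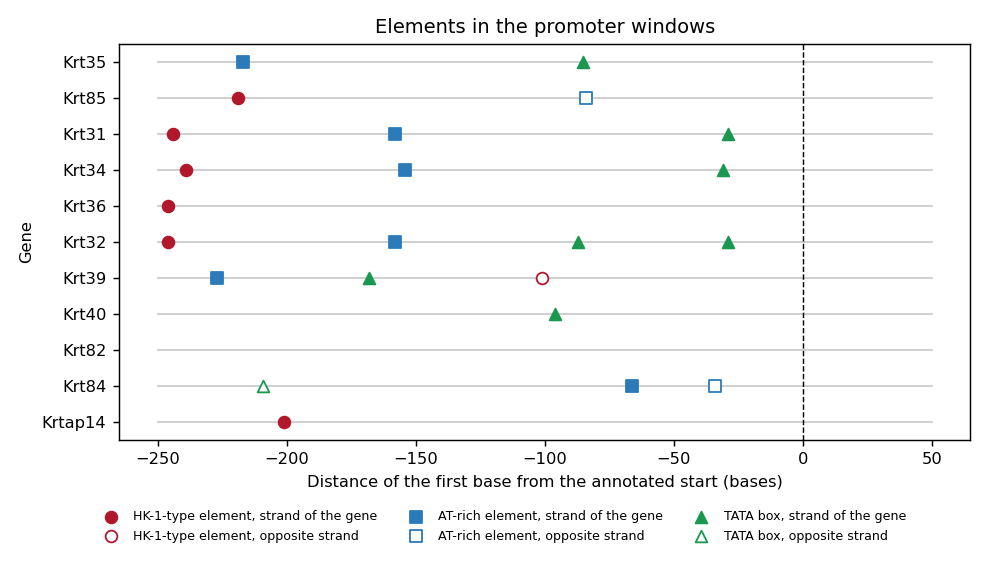
Promoter windows of the 11 members with an entry, drawn as grey lines from 250 bases before to 50 bases after the annotated start (dashed line), with the distance of each element's first base from the start in bases on the x axis. Filled symbols lie on the strand of the gene and open symbols on the opposite strand. The HK-1-type element sits 246 to 201 bases before the start in 6 genes, and Krt82 has none of the elements.

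The 6 most abundant members were 5 cortex keratins and the matrix keratin Krt85. Over all 17 rats, mean levels were 88.3 TPM for Krt31, 78.4 for Krt86, 67.6 for Krt85, 64.7 for Krt81, 59.8 for Krt34 and 54.8 for Krt83. The levels of Krtap14, Krt35, Krt32 and Krt82 followed at 34.1, 30.3, 20.95 and 11.4 TPM, and Krt84, Krt40, Krt36 and Krt39 were lowest at 4.43, 4.07, 2.10 and 1.90 TPM. Krt81, Krt83 and Krt86 are close paralogues, as are Krt31 and Krt34, and the authors' quantification could split reads between them, so their order is uncertain. The row named Krt83 carries an Entrez number (681126) that RefSeq now gives to Krt87, with Krt83 as an older name, so which of these paralogues it measures is uncertain. Krt34 is annotated as a processed transcript in the table.

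Summed over the 14 members, hair shaft transcripts stood at 699, 437, 669 and 918 TPM in Control WT 1 to 4, and at 280.1, 206 and 534 TPM in UVB WT 1 to 3. In P1.hMR rats the sums were 539, 935, 357, 619 and 712 TPM in Control P1.hMR 1 to 5, and 470.4, 315, 416, 473 and 309 TPM in UVB P1.hMR 1 to 5. UVB WT 3 was the highest of the 8 UVB rats and exceeded Control WT 2, while Control P1.hMR 3 was the lowest control rat and lay inside the range of UVB P1.hMR, so the groups overlapped in both genotypes. The group values were 681 ± 197 TPM (SD, n = 4) in Control WT, 340.2 ± 172 (SD, n = 3) in UVB WT, 632 ± 214 (SD, n = 5) in Control P1.hMR and 397 ± 80.5 (SD, n = 5) in UVB P1.hMR. The members thus made up 0.0826% of all listed TPM in Control WT and 0.0411% in UVB WT on average, and 0.0774% and 0.0483% in Control and UVB P1.hMR. In bulk tissue, fewer cells of a type and less RNA per cell cannot be told apart.

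**Figure D2:**
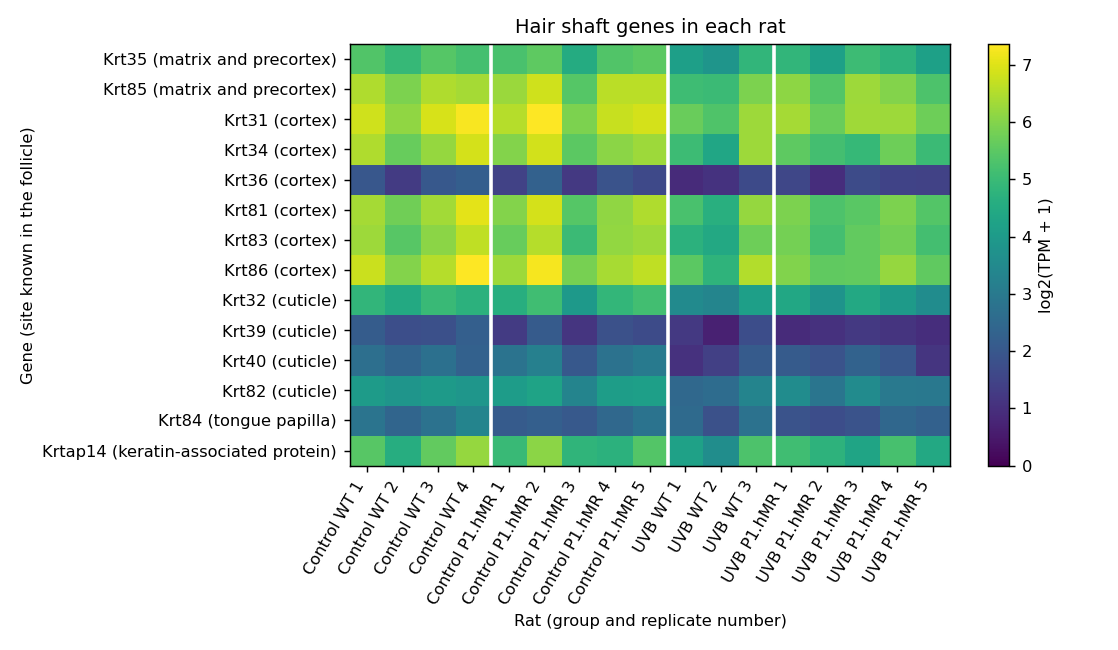
Level of each of the 14 members (rows, with the site known from the human follicle) in each of the 17 rats (columns, grouped by white lines), as log2(TPM + 1). Columns of UVB WT 1 and 2 are the darkest. By the mean over the members, UVB WT 3 (4.49) lies above Control WT 2 (4.33). Control P1.hMR 3 (4.01) lies within the range of UVB P1.hMR (3.80 to 4.29).

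After UVB in WT rats, 8 of the 14 members fell and 0 rose. The 8 were both matrix keratins (Krt35 and Krt85), all 4 cuticle keratins (Krt32, Krt39, Krt40 and Krt82) and 2 of 6 cortex keratins (Krt31 and Krt83). The test was limma on log2(TPM + 1), reported as a log2 fold change with its standard error (SE), on which scale changes of weakly expressed genes look smaller than they are. To be called, a gene needed an adjusted p (Benjamini-Hochberg) under 0.05 together with a log2 fold change of 0.5 or more in either direction. By this rule 3.98% of all genes tested were called lower and 3.92% higher. The log2 fold changes of all 14 members were below 0, from -1.15 to -0.45 with a median of -1.02, against 48.8% of all genes below 0 and a median of 0.01. In P1.hMR rats, 6 of the 14 members fell and 0 rose, namely the same 4 cuticle keratins, the matrix keratin Krt35 and the cortex keratin Krt34, with 5.71% of all genes called lower and 5.05% higher. All 14 log2 fold changes were again below 0, from -0.88 to -0.26 with a median of -0.60, against 52.9% of genes below 0 and a median of -0.02. Members called in both genotypes were Krt32, Krt35, Krt39, Krt40 and Krt82, 5 of the 8 called in WT and 5 of the 6 called in P1.hMR. Members of a hair follicle share their source, so their changes are not independent.

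**Figure D3:**
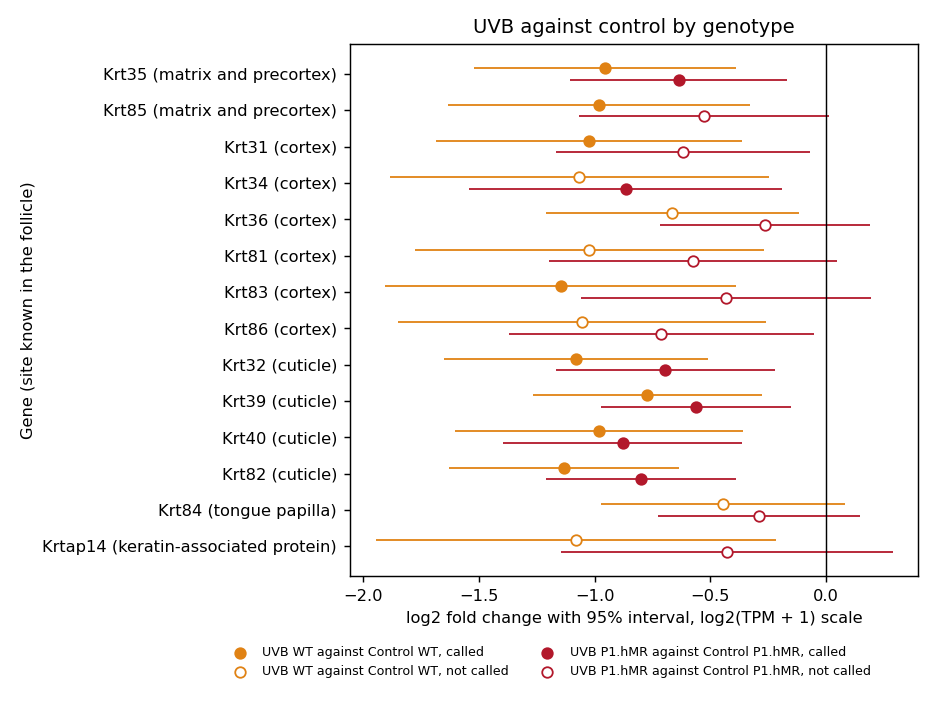
Log2 fold change of UVB against control for each member (points) with its 95% interval (lines) on the log2(TPM + 1) scale, in WT rats (orange) and P1.hMR rats (red). Filled points passed the test and open points did not, and all points lie below 0.

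Among the matrix and precortex keratins, Krt35, a type I chain that begins the hair keratin programme, was at 40.04, 29.6, 42.1 and 35.9 TPM in Control WT 1 to 4 and 16.8, 13.3 and 27.6 TPM in UVB WT 1 to 3. All UVB WT rats were below all Control WT rats, with a log2 fold change of -0.96 (SE 0.27, limma Benjamini-Hochberg adjusted p = 0.0185). In P1.hMR rats, Krt35 was at 37.3, 45.8, 22.1, 40.2 and 44.2 TPM in Control P1.hMR 1 to 5 and 27.8, 17.1, 32.2, 26.2 and 17.1 TPM in UVB P1.hMR 1 to 5. These groups overlapped through Control P1.hMR 3, and the log2 fold change was -0.64 (SE 0.22, limma Benjamini-Hochberg adjusted p = 0.0317). Krt85, the type II chain of the same stage, was at 88.6, 59.1, 88.02 and 82.3 TPM in Control WT 1 to 4 and 32.6, 31.6 and 58.6 TPM in UVB WT 1 to 3. No UVB WT rat reached the lowest Control WT rat, although UVB WT 3 came close to it, and the log2 fold change was -0.98 (SE 0.31, limma Benjamini-Hochberg adjusted p = 0.0323). In P1.hMR rats, Krt85 was at 75.2, 112, 42.2, 96 and 96.5 TPM in Control P1.hMR 1 to 5 and 67.5, 41.2, 76.6, 62.3 and 38.6 TPM in UVB P1.hMR 1 to 5. Krt85 did not pass the test there, with a log2 fold change of -0.53 (SE 0.26, limma Benjamini-Hochberg adjusted p = 0.113), and Control P1.hMR 3 stood below 3 of the 5 UVB rats.

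Cortex keratins make up the bulk of the shaft. Krt31, the main type I keratin of the cortex, was at 112, 69.99, 119 and 157 TPM in Control WT 1 to 4 and 50.7, 39.2 and 77.1 TPM in UVB WT 1 to 3. UVB WT 3 lay above Control WT 2 and the other UVB WT rats lay below every control, with a log2 fold change of -1.02 (SE 0.31, limma Benjamini-Hochberg adjusted p = 0.0283). In P1.hMR rats, Krt31 was at 91.5, 163, 59.3, 106 and 118 TPM in Control P1.hMR 1 to 5 and 81.2, 49.9, 78.4, 76.5 and 52.2 TPM in UVB P1.hMR 1 to 5. Control P1.hMR 3 lay below 3 of the 5 UVB rats, and the log2 fold change of -0.62 (SE 0.26, limma Benjamini-Hochberg adjusted p = 0.0687) did not pass the test. Krt83, a type II cortex keratin, was at 76.7, 42.5, 66.5 and 99.1 TPM in Control WT 1 to 4 and 25.3, 20.7 and 52.1 TPM in UVB WT 1 to 3. The groups overlapped through UVB WT 3 and Control WT 2, and the log2 fold change of -1.15 (SE 0.36, limma Benjamini-Hochberg adjusted p = 0.0315) was the furthest from 0 of the 14 in WT. In P1.hMR rats, Krt83 was at 49.4, 92.2, 31.2, 71.6 and 77.7 TPM in Control P1.hMR 1 to 5 and 55.2, 34.9, 46.9, 54.5 and 35.1 TPM in UVB P1.hMR 1 to 5. Control P1.hMR 3 was the lowest of these 10 rats, and the log2 fold change of -0.43 (SE 0.30, limma Benjamini-Hochberg adjusted p = 0.265) did not pass the test.

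Krt34, a type I cortex keratin, was at 88.7, 49.4, 72.2 and 117 TPM in Control WT 1 to 4 and 32.2, 19.6 and 77.7 TPM in UVB WT 1 to 3. UVB WT 3 was above Control WT 2 and Control WT 3, and the log2 fold change of -1.07 (SE 0.39, limma Benjamini-Hochberg adjusted p = 0.0591) did not pass the test. In P1.hMR rats, Krt34 was at 63.02, 115, 44.3, 66.5 and 77.5 TPM in Control P1.hMR 1 to 5 and 45.2, 34.9, 29.7, 52.7 and 31.3 TPM in UVB P1.hMR 1 to 5. It was called there, with a log2 fold change of -0.87 (SE 0.32, limma Benjamini-Hochberg adjusted p = 0.0411), and UVB P1.hMR 1 and 4 lay above Control P1.hMR 3. A difference between the genotypes was not shown for Krt34, whose interaction was 0.20 (SE 0.50, limma Benjamini-Hochberg adjusted p = 0.957) with a 95% interval from -0.86 to 1.26.

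Krt81 and Krt86, the other type II cortex keratins, did not pass the test in either genotype. Krt81 was at 81.4, 53.8, 80.1 and 132 TPM in Control WT 1 to 4 and 36.7, 24.2 and 71.8 TPM in UVB WT 1 to 3, with a log2 fold change of -1.02 (SE 0.36, limma Benjamini-Hochberg adjusted p = 0.0502). Krt86 was at 108, 62.5, 91.4 and 164 TPM in Control WT 1 to 4 and 44.9, 26.4 and 91.1 TPM in UVB WT 1 to 3, with a log2 fold change of -1.06 (SE 0.38, limma Benjamini-Hochberg adjusted p = 0.0546). In both genes UVB WT 3 stood above Control WT 2, and their adjusted p lay just over 0.05. In P1.hMR rats, Krt81 was at 62.6, 118, 41.5, 69.1 and 87.9 TPM in Control P1.hMR 1 to 5 and 58.9, 38.9, 43.8, 58.9 and 41.3 TPM in UVB P1.hMR 1 to 5, with a log2 fold change of -0.58 (SE 0.30, limma Benjamini-Hochberg adjusted p = 0.134). Krt86 was at 76.9, 152, 56.7, 83.6 and 101 TPM in Control P1.hMR 1 to 5 and 61.1, 46.3, 47.3, 73.1 and 46.8 TPM in UVB P1.hMR 1 to 5, with a log2 fold change of -0.71 (SE 0.31, limma Benjamini-Hochberg adjusted p = 0.0803). In both, Control P1.hMR 3 lay within the UVB range. Krt36, a low-abundance type I keratin, was at 2.99, 1.44, 3.07 and 3.62 TPM in Control WT 1 to 4 and 0.86, 1.12 and 2.17 TPM in UVB WT 1 to 3. In P1.hMR rats, Krt36 was at 1.74, 3.83, 1.35, 2.72 and 2.1 TPM in Control P1.hMR 1 to 5 and 1.96, 0.96, 2.23, 1.79 and 1.75 TPM in UVB P1.hMR 1 to 5. The groups overlapped in both genotypes. Its log2 fold changes were -0.66 (SE 0.26, limma Benjamini-Hochberg adjusted p = 0.0777) in WT and -0.26 (SE 0.21, limma Benjamini-Hochberg adjusted p = 0.350) in P1.hMR, and neither passed the test. The study names Krt36 among differentiation genes in its enrichment analysis of UVB P1.hMR against UVB WT. Here that log2 fold change was 0.22 (SE 0.25, limma Benjamini-Hochberg adjusted p = 0.804), and the groups overlapped. The study used DESeq2, so the tests differ.

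The cuticle keratins, which form the overlapping outer scales of the shaft, were called in both genotypes. Krt82, the type II keratin of the cuticle, was at 15.5, 13.2, 15.2 and 13.7 TPM in Control WT 1 to 4 and 4.6, 5.12 and 9.02 TPM in UVB WT 1 to 3. The groups did not overlap, and the log2 fold change was -1.13 (SE 0.23, limma Benjamini-Hochberg adjusted p = 0.00336), the smallest adjusted p of the 14 members. In P1.hMR rats, Krt82 was at 15.7, 18.3, 8.99, 16.2 and 17 TPM in Control P1.hMR 1 to 5 and 10.96, 6.33, 10.7, 6.94 and 6.65 TPM in UVB P1.hMR 1 to 5. Every UVB rat was below 4 of the 5 controls, and Control P1.hMR 3 lay among them, with a log2 fold change of -0.80 (SE 0.19, limma Benjamini-Hochberg adjusted p = 0.00405). Krt32, a type I cuticle keratin, was at 27.8, 20.98, 30.7 and 25.7 TPM in Control WT 1 to 4 and 10.6, 9.14 and 16.9 TPM in UVB WT 1 to 3. Its groups did not overlap either, with a log2 fold change of -1.08 (SE 0.27, limma Benjamini-Hochberg adjusted p = 0.0100). In P1.hMR rats, Krt32 was at 23.7, 33.4, 14.7, 28.1 and 34.4 TPM in Control P1.hMR 1 to 5 and 20.1, 12.7, 20.96, 15.2 and 11.1 TPM in UVB P1.hMR 1 to 5. The log2 fold change was -0.70 (SE 0.22, limma Benjamini-Hochberg adjusted p = 0.0212), and the overlap again came from Control P1.hMR 3.

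Krt40 and Krt39 are type I keratins of the cuticle with low transcript levels. Krt40 was at 5.4, 4.13, 5.53 and 3.84 TPM in Control WT 1 to 4 and 1.09, 1.62 and 3.35 TPM in UVB WT 1 to 3, with no overlap and a log2 fold change of -0.98 (SE 0.29, limma Benjamini-Hochberg adjusted p = 0.0261). In P1.hMR rats, Krt40 was at 6.02, 8.21, 3.07, 5.8 and 7.0 TPM in Control P1.hMR 1 to 5 and 3.32, 2.67, 3.97, 2.97 and 1.18 TPM in UVB P1.hMR 1 to 5, and its log2 fold change of -0.88 (SE 0.24, limma Benjamini-Hochberg adjusted p = 0.00930) was the furthest from 0 of the 14 there. UVB P1.hMR 1 and 3 lay above Control P1.hMR 3. Krt39 was at 3.41, 2.43, 2.46 and 3.68 TPM in Control WT 1 to 4 and 1.31, 0.61 and 2.34 TPM in UVB WT 1 to 3, with a log2 fold change of -0.77 (SE 0.23, limma Benjamini-Hochberg adjusted p = 0.0274). In P1.hMR rats, Krt39 was at 1.44, 3.36, 1.2, 2.54 and 2.22 TPM in Control P1.hMR 1 to 5 and 0.87, 1.08, 1.33, 1.14 and 0.95 TPM in UVB P1.hMR 1 to 5, with a log2 fold change of -0.56 (SE 0.19, limma Benjamini-Hochberg adjusted p = 0.0299). The WT groups of Krt39 did not overlap and the P1.hMR groups overlapped through Control P1.hMR 3.

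Krt84 and Krtap14 did not pass the test in either genotype. Krt84 was at 6.1, 4.32, 5.85 and 8.95 TPM in Control WT 1 to 4 and 4.8, 2.58 and 5.89 TPM in UVB WT 1 to 3, with a log2 fold change of -0.45 (SE 0.25, limma Benjamini-Hochberg adjusted p = 0.216). In P1.hMR rats, Krt84 was at 3.33, 3.69, 3.13, 4.62 and 6.03 TPM in Control P1.hMR 1 to 5 and 2.68, 2.34, 2.68, 4.5 and 3.9 TPM in UVB P1.hMR 1 to 5, with a log2 fold change of -0.29 (SE 0.21, limma Benjamini-Hochberg adjusted p = 0.286). Krt84 had the log2 fold change nearest to 0 of the 14 in WT, and its groups overlapped in both genotypes. Krtap14, the single KAP that passed the filter, was at 42.5, 23.3, 46.96 and 72.7 TPM in Control WT 1 to 4 and 17.6, 11.1 and 38.7 TPM in UVB WT 1 to 3, with a log2 fold change of -1.08 (SE 0.41, limma Benjamini-Hochberg adjusted p = 0.0700). In P1.hMR rats, Krtap14 was at 31.1, 67.1, 26.9, 25.5 and 40.6 TPM in Control P1.hMR 1 to 5 and 33.6, 26.3, 18.8, 36.3 and 20.9 TPM in UVB P1.hMR 1 to 5, with a log2 fold change of -0.43 (SE 0.34, limma Benjamini-Hochberg adjusted p = 0.335). UVB WT 3 and Control WT 2 crossed for Krtap14 as they did for the cortex keratins, and in P1.hMR 3 of the 5 UVB rats lay above the lowest control.

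By site in the follicle, the sizes of change lay close together in WT. The median log2 fold change was -1.03 for the 4 cuticle keratins, -1.04 for the 6 cortex keratins and -0.97 for the 2 matrix keratins in WT. Standard errors ran from 0.23 to 0.29 for cuticle and from 0.26 to 0.39 for cortex keratins. In P1.hMR rats the medians were -0.75, -0.60 and -0.58, and the standard errors 0.19 to 0.24 for cuticle and 0.21 to 0.32 for cortex. Of the 14 members, 6 (Krt32, Krt35, Krt39, Krt40, Krt82 and Krt85) had all UVB WT rats below all Control WT rats, against 12.6% of all genes. There were 13 (17.1% of all genes) without UVB WT 3 and 12 (13.7%) without Control WT 2. In P1.hMR, 0 of 14 did, against 14.0% of all genes, and without Control P1.hMR 3 there were 9 of 14, against 15.7%.

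The counts of called members rested on single rats. In WT, the count of 8 became 13 without UVB WT 3 and 13 without Control WT 2, the 2 rats that crossed between the groups, with 3.95% and 3.55% of all genes called lower in these fits. It became 1 without UVB WT 2, 2 without UVB WT 1, and 4 without each of Control WT 1, Control WT 3 and Control WT 4, while 2.62%, 4.51%, 4.69%, 3.30% and 3.39% of all genes were called lower. Krt82 was called in all 17 fits that left out 1 rat, with adjusted p from 0.00132 to 0.0192 in limma with Benjamini-Hochberg adjustment. Krt32 was called in 16 of 17, and lost without UVB WT 2 (limma Benjamini-Hochberg adjusted p = 0.0526). Krt35 was called in 15 and lost without UVB WT 1 or UVB WT 2. Those same rats also ended the calls of Krt31, Krt39 and Krt40 (13 fits each) and of Krt83 and Krt85 (12 fits each). So did Control WT 3 and 4 for Krt31, Control WT 1 and 4 for Krt39, Control WT 1 and 3 for Krt40, and Control WT 1, 3 and 4 for Krt83 and Krt85. In these fits the limma Benjamini-Hochberg adjusted p went up to 0.155, for Krt39. Krt81 and Krt86 gained the call without Control WT 2, UVB WT 3, Control P1.hMR 2 or Control P1.hMR 3, and Krt34, Krt36 and Krtap14 gained it without Control WT 2 or UVB WT 3.

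In P1.hMR rats, the count of 6 became 10 without Control P1.hMR 3 (5.75% of all genes called lower), and 2 without each of Control P1.hMR 2, Control P1.hMR 5 and UVB P1.hMR 5. It was 3 without Control P1.hMR 4 and 3 without UVB P1.hMR 2. In these 5 fits with a lower count, 5.14% to 5.63% of all genes were called lower. Krt82 and Krt40 were called in all 17 fits, with adjusted p of at most 0.0126 and 0.0276 in limma with Benjamini-Hochberg adjustment. Krt32 was called in 13, Krt39 in 12, Krt35 in 11 and Krt34 in 10 of the 17. Control P1.hMR 2, Control P1.hMR 5 and UVB P1.hMR 5 ended all 4 of these calls when left out. UVB P1.hMR 2 ended those of Krt32, Krt34 and Krt35, and Control P1.hMR 4 those of Krt34, Krt35 and Krt39. Control P1.hMR 1 ended the calls of Krt34 and Krt35, UVB P1.hMR 1 that of Krt39 and UVB P1.hMR 3 that of Krt34. In these fits the limma Benjamini-Hochberg adjusted p went up to 0.109, for Krt34. Without Control P1.hMR 3, Krt31, Krt81, Krt85 and Krt86 gained the call, and Krt86 also without UVB WT 3. In all 17 fits for each genotype, the log2 fold changes of all 14 members stayed below 0. Fits without a rat of the other genotype could not move them.

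Ratios between members were taken within each rat. They are a description and were not tested between groups, and the sites were assigned after the members' values were seen. The summed cuticle keratins over the summed matrix keratins gave 0.405, 0.460, 0.414 and 0.397 in Control WT 1 to 4, and 0.355, 0.367 and 0.367 in UVB WT 1 to 3. In P1.hMR rats this ratio was 0.417, 0.402, 0.434, 0.387 and 0.430 in controls, and 0.370, 0.390, 0.340, 0.296 and 0.357 after UVB. All UVB WT rats, UVB WT 3 included, were thus below all Control WT rats, and in P1.hMR the groups crossed at UVB P1.hMR 2 and Control P1.hMR 4. The group values were 0.419 ± 0.0280 (SD, n = 4), 0.363 ± 0.00688 (SD, n = 3), 0.414 ± 0.0199 (SD, n = 5) and 0.351 ± 0.0356 (SD, n = 5) in Control WT, UVB WT, Control P1.hMR and UVB P1.hMR. Cortex over matrix keratins showed no such order, at 3.95 ± 1.17 (SD, n = 4), 3.70 ± 0.71 (SD, n = 3), 3.41 ± 0.46 (SD, n = 5) and 3.27 ± 0.59 (SD, n = 5) in the same groups. Control WT 4 had the highest cortex ratio (5.68) and UVB P1.hMR 3 the lowest (2.28). Type I over type II keratins, the partners of each filament, lay between 0.670 and 0.795 in all 17 rats. The means were 0.747, 0.748, 0.764 and 0.699 in the 4 groups in the same order.

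**Figure D4:**
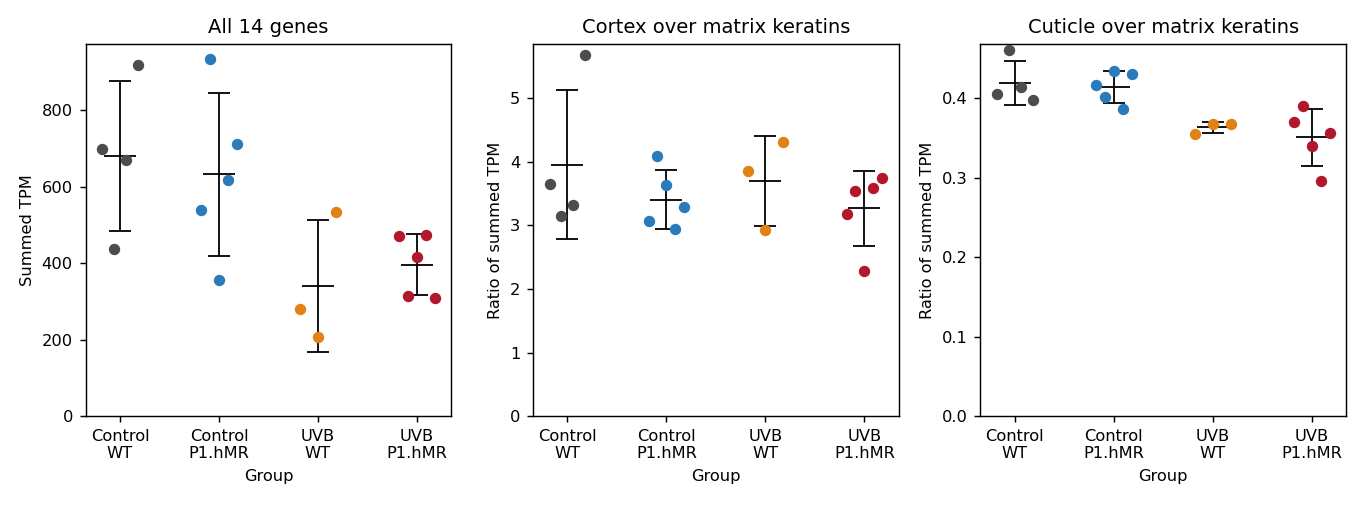
Summed TPM of the 14 members (left), summed cortex over summed matrix keratins (middle) and summed cuticle over summed matrix keratins (right) in each rat (points), with the mean and SD of each group (bars). Points of the control groups overlap those of the UVB groups at left and middle, and at right all UVB WT rats (0.355 to 0.367) are below all control rats (0.387 to 0.460).

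Between genotypes, 0 members were called in either treatment. Under UVB, 12 of 14 members had a fitted log2(TPM + 1) difference above 0 between P1.hMR and WT rats, while 56.5% of all genes were below 0, with log2 fold changes from -0.34 for Krt84 to 0.54 for Krt83 and a median of 0.31. limma called 0.0229% of all genes, the smallest adjusted p among the members was 0.594 (Krt82), and 0 members had an unadjusted p under 0.05, against 10.3% of all genes. For Krt82 the log2 fold change was 0.38, with a 95% interval from -0.10 to 0.85. The median over the members was 0.62 without UVB WT 3, 0.09 without UVB WT 2 and 0.20 without UVB WT 1, with 7, 1 and 0 members at an unadjusted p under 0.05 and 0 called. Without UVB, 10 of 14 members had a fitted log2(TPM + 1) difference below 0 between P1.hMR and WT rats (51.1% of all genes), with a median log2 fold change of -0.16, and 0.00763% of all genes were called. Krt84 had the largest difference, -0.49 (SE 0.22, limma Benjamini-Hochberg adjusted p = 0.998), and was the 1 member with an unadjusted p under 0.05, against 4.03% of all genes. The median passed above 0 without Control WT 4 (0.01) and without Control P1.hMR 3 (0.03).

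The interaction asked whether the change with UVB differed between genotypes. limma called 0 members and 0 of all 13105 genes, and 0 members had an unadjusted p under 0.05, against 6.92% of all genes. All 14 estimates were above 0, so that each log2 fold change with UVB was nearer to 0 in P1.hMR than in WT rats, with a median of 0.36 and a range from 0.10 (Krt40) to 0.72 (Krt83), while 55.0% of all genes were below 0. For Krt83 the 95% interval ran from -0.27 to 1.70, and the intervals of all members included 0. The median was 0.65 without UVB WT 3, 0.14 without UVB WT 2 and 0.19 without Control P1.hMR 3. Krt31, Krt83 and Krt85 passed the test in WT alone, and their interactions were 0.41, 0.72 and 0.45, with limma Benjamini-Hochberg adjusted p of 0.880, 0.794 and 0.867. These estimates come from the same rats and are not 14 independent values.

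Genes of the neighbouring layers of the follicle were read beside the shaft genes. Among all genes tested, 3.98% were called lower with UVB in WT and 5.71% in P1.hMR. Of 11 tested genes of the inner root sheath and companion layer, which mould the growing shaft, 9 fell in WT and the same number in P1.hMR, with medians of -1.05 and -0.93. In the inner root sheath keratin Krt72, the log2 fold change was -1.48 (SE 0.31, limma Benjamini-Hochberg adjusted p = 0.00319) in WT rats and -1.21 (SE 0.25, limma Benjamini-Hochberg adjusted p = 0.00134) in P1.hMR. For Krt26, another keratin of the sheath, it was -1.35 (SE 0.28, limma Benjamini-Hochberg adjusted p = 0.00333) in WT and -1.05 (SE 0.23, limma Benjamini-Hochberg adjusted p = 0.00197) in P1.hMR. For Tchh (trichohyalin, which hardens the sheath), it was -1.21 (SE 0.31, limma Benjamini-Hochberg adjusted p = 0.0118) in WT and -1.01 (SE 0.26, limma Benjamini-Hochberg adjusted p = 0.00534) in P1.hMR. The mean log2(TPM + 1) of these 11 genes did not overlap between control and UVB rats in either genotype, and UVB WT 3 was again the highest UVB rat. Their summed TPM did not overlap in P1.hMR and overlapped in WT, where UVB WT 3 was at 961 TPM and Control WT 4 at 898 TPM.

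A list of partners of the shaft holds enzymes and adhesion proteins that cross-link it or join its cells, and also other genes of hair and skin. Of 18 tested, 6 fell and 4 rose in WT, and 5 fell and 4 rose in P1.hMR, with medians of -0.18 and -0.16. The shares over all genes were 3.98% lower and 3.92% higher in WT, and 5.71% and 5.05% in P1.hMR. Tgm3, a transglutaminase of hair and epidermis, rose, with a log2 fold change of 1.30 (SE 0.20, limma Benjamini-Hochberg adjusted p = 5.32e-04) in WT rats and 1.37 (SE 0.17, limma Benjamini-Hochberg adjusted p = 1.68e-05) in P1.hMR. S100a3, a calcium-binding protein of the hair cuticle, had -1.12 (SE 0.27, limma Benjamini-Hochberg adjusted p = 0.00824) and -0.76 (SE 0.22, limma Benjamini-Hochberg adjusted p = 0.0129). Selenbp1, a selenium-binding protein, had -0.86 (SE 0.22, limma Benjamini-Hochberg adjusted p = 0.0126) and -0.90 (SE 0.19, limma Benjamini-Hochberg adjusted p = 0.00121). Among the others called, Padi3, which converts arginine to citrulline in shaft proteins, Dsg4, a desmosomal cadherin of the shaft, and Gprc5d, an orphan receptor, fell in both genotypes. Tgm1, a transglutaminase of epidermis, S100a4, a calcium-binding protein, and Crip1, a LIM domain protein, rose in both. S100a4, Crip1, Gprc5d and Selenbp1 are not among the cross-linking or adhesion proteins of the list.

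Of 21 tested regulators of the hair matrix, 5 were called lower and 0 higher in WT, and 6 lower and 0 higher in P1.hMR, with medians of -0.30 and -0.22. Over all genes, 3.98% were called lower in WT and 5.71% in P1.hMR. Log2 fold changes below 0 were found for 15 of the 21 in WT and 14 in P1.hMR. The share of all genes below 0 was 48.8% in WT and 52.9% in P1.hMR. Msx2, a homeobox factor of the matrix, had a log2 fold change of -0.94 (SE 0.18, limma Benjamini-Hochberg adjusted p = 0.00199) in WT rats and -0.68 (SE 0.15, limma Benjamini-Hochberg adjusted p = 0.00175) in P1.hMR. Hoxc13, a homeobox factor known to act on hair keratin genes, had -0.77 (SE 0.24, limma Benjamini-Hochberg adjusted p = 0.0326) and -0.74 (SE 0.20, limma Benjamini-Hochberg adjusted p = 0.00820). Dlx3 had -0.82 (SE 0.18, limma Benjamini-Hochberg adjusted p = 0.00491) and -0.59 (SE 0.15, limma Benjamini-Hochberg adjusted p = 0.00535). Lef1, the factor whose site the CTTTGAA letters resemble, and Shh, a growth signal of the matrix, fell in both genotypes, and Eda was called in P1.hMR.

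**Figure D5:**
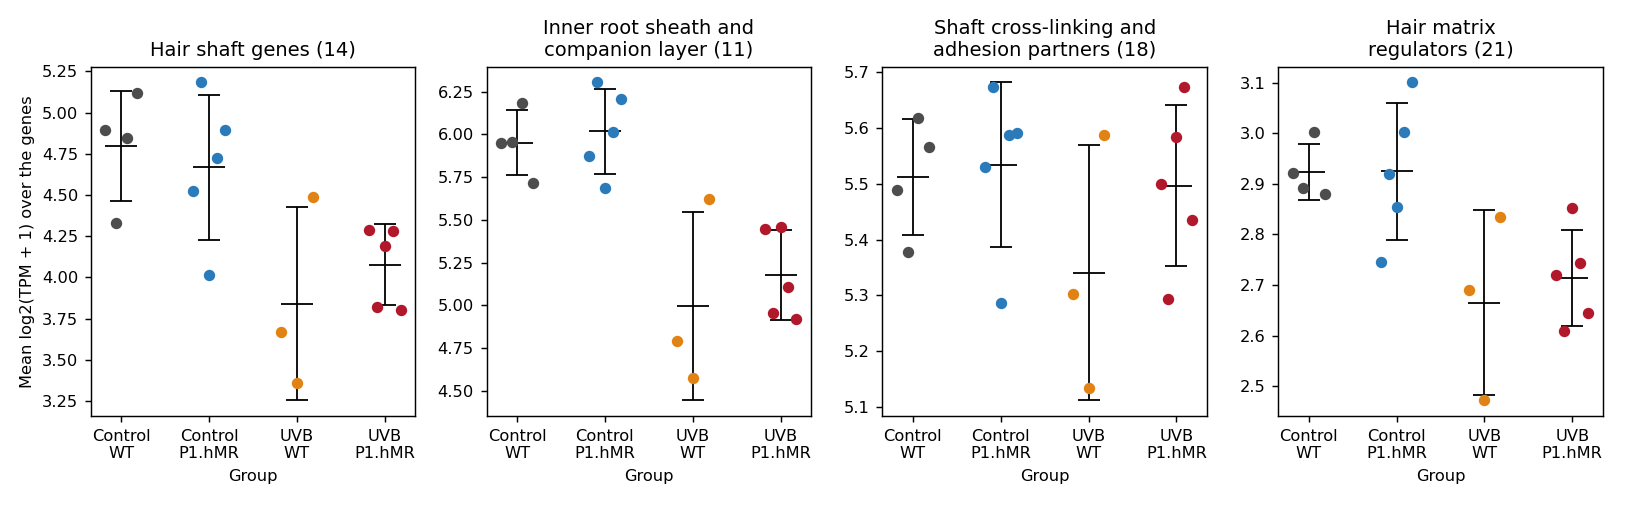
Mean log2(TPM + 1) over the genes of each list in each rat (points), with the mean and SD of each group (bars), for the 14 hair shaft genes and 3 related lists. The y axes do not start at 0 and differ between panels. On this scale inner root sheath genes separate control from UVB rats in both genotypes, and the list of shaft partners does not.

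Markers of other cells that a dissected MG can hold were measured beside these changes. For the counts below, 3.98% of all genes tested were called lower in WT and 5.71% in P1.hMR, and 3.92% and 5.05% higher. Log2 fold changes with UVB lay below 0 for 48.8% of all genes in WT and 52.9% in P1.hMR. All 12 tested skeletal muscle genes were below 0 in WT after UVB and 10 in P1.hMR, of which 3 and 4 fell. Their summed level was 2989 to 4269 TPM in Control WT, 1909 to 3581 TPM in UVB WT, 2577 to 4573 TPM in Control P1.hMR and 2091 to 3912 TPM in UVB P1.hMR. UVB WT 3, the UVB rat with the most hair shaft transcripts, was the one with 1909 TPM of muscle genes. Melanocyte genes, some of which belong to the hair bulb, fell in 4 of 9 cases in WT and limma called 0 of 9 in P1.hMR. There 5 of the 9 had an unadjusted p under 0.05, as did 6244 of all 13105 genes tested. Their sums were 96.7 to 164 TPM in Control WT, 86.3 to 91.2 TPM in UVB WT, 119 to 163 TPM in Control P1.hMR and 105 to 162 TPM in UVB P1.hMR. The 22 meibomian and sebaceous genes had median log2 fold changes near 0, -0.00167 in WT rats and 0.00559 in P1.hMR rats, with 2 and 3 called higher and 2 and 3 called lower. Fibroblast genes rose in 4 of 7 cases in WT, with 0 lower, and in 3 of 7 in P1.hMR, with 1 lower. Their sums were 921 to 1435 TPM in Control WT, 1211 to 1951 TPM in UVB WT, 1351 to 1555 TPM in Control P1.hMR and 1310.1 to 1777 TPM in UVB P1.hMR. Of 11 epidermal and outer root sheath genes, 3 were called lower and 0 higher in each genotype, with sums of 13024 to 15562 TPM in Control WT, 14579 to 17765 TPM in UVB WT, 13245 to 14677 TPM in Control P1.hMR and 13231 to 18336 TPM in UVB P1.hMR. Of these, 8 had log2 fold changes below 0 in each genotype. Krt77 lay furthest from 0, with -4.01 (SE 0.37, limma Benjamini-Hochberg adjusted p = 8.03e-06) in WT and -3.25 (SE 0.31, limma Benjamini-Hochberg adjusted p = 2.33e-06) in P1.hMR. Krt14 had 0.48 (SE 0.13, limma Benjamini-Hochberg adjusted p = 0.0175) and 0.498 (SE 0.11, limma Benjamini-Hochberg adjusted p = 0.00204). A change as large as that of Krt77 weighs on a mean over 11 genes. The mean log2(TPM + 1) of the epidermal genes was 8.15 to 8.44 in Control WT, 7.34 to 7.92 in UVB WT, 8.04 to 8.39 in Control P1.hMR and 7.53 to 7.75 in UVB P1.hMR, so on this scale all UVB rats lay below all controls of their genotype. On the same scale, all UVB rats lay above all controls of their genotype for the fibroblast genes. Of 9 leukocyte genes limma called 0 in each genotype, with 0 and 1 at an unadjusted p under 0.05. The counts over all 13105 genes were 4622 in WT and 6244 in P1.hMR. Of 7 conjunctival and goblet cell genes, 1 fell in WT and 3 in P1.hMR, and 0 rose. Their sums were 4012 to 5468 TPM in Control WT and 4928 to 6425 TPM in UVB WT. In P1.hMR rats the sums were 4523 to 5306 TPM in controls and 5105 to 6981 TPM after UVB. Muc5ac, Muc4 and Muc16 were not analysed here. None of the markers listed was at 0 in every rat. The part of these cells in the changes of the hair shaft genes was not tested.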

How the data were processed

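RNA-seq of the MG of 17 rats was analysed, grouped by the deposited labels. The authors deposited TPM for 17251 genes, written with 2 decimals and decimal commas, 1 column per rat. By the study's methods, reads were aligned to rn7 with STAR and quantified with RSEM, while the submitters' processing notes name FastQC, Trimmomatic, DRAGEN and Picard, so the tool behind the table is uncertain. Sequencing strand and counts are not given in the sources used here, and the study's DESeq2 test needs counts. TPM keeps no depth, so precision comes from the spread between rats. P-values set a difference of groups against this spread, pooled over all groups and moderated across genes.

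Genes that reached 1 TPM in 3 rats or more, 13105 in number, entered 1 limma 3.58.1 model (R 4.3.3) of log2(TPM + 1), with a mean per group and a variance trend. Calls needed a two-sided Benjamini-Hochberg adjusted p under 0.05 over all genes tested and a log2 fold change of 0.5 or more in either direction. The model was tested on simulated data. Promoters came from RefSeq GRCr8 and were matched by symbol, and figures and motif searches used Python 3.11.15. Members, gene lists and sites in the follicle were chosen with earlier results of these data known, and the sites after the members' values were seen. Every member is described. From each related list, the 3 called genes furthest from 0 over both UVB comparisons have full values. Genes named beyond these were chosen after their values were seen. Alternatives were another pseudocount, filter, scaling, threshold or model, a replicate block, and each rat left out. Protein sequences were not used here.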

Additional observations from a re-analysis of the deposited data

Results flagged for a closer look

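Control P1.hMR 3 stood apart from the other Control P1.hMR rats in 2 members. For Krt35 it had 22.15 TPM, against 37.28 to 45.82 TPM in the other 4 rats of the group. On the log2(TPM + 1) scale, this gap was 0.714 of the group's range. For Krt82 it had 8.99 TPM, against 15.71 to 18.3 TPM, a gap of 0.781 of the range on the same log scale. Both exceed the limit of Dixon's test for 5 rats on this scale, and the gaps in TPM itself were not tested. Of 51 tests of this kind over members and groups, 2 met the limit, where chance gives about 1 in 20. The same rat had the lowest summed hair shaft level of the control rats (357 TPM), and its cuticle over matrix ratio (0.434) was the highest of its group.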

How the results depend on the processing

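Beside leaving out rats, 10 alternatives were run for each UVB comparison within a genotype. In WT, the 8 called members became 5 in a fit of the 2 groups alone, 2 with sample weights, 4 when a log2 fold change of 1 was required and 3 with a replicate block. In P1.hMR, the 6 became 0 when a log2 fold change of 1 was required and 4 with the block. The cause of these shifts was not tested. The other alternatives gave counts within 1.5 times those reported. Replicate numbers did not pair the rats, since same-numbered rats of a genotype correlated at -0.187 to 0.0538 in their deviations from the group means, so the block does not speak of the effect's size. Leaving out 1 rat gave 1 to 13 called members in WT and 2 to 10 in P1.hMR, as described for each rat. The genotype comparisons had 0 called members under all of these settings, and the interaction had 0 under the 9 alternatives that could give one and with each rat left out. Of the single log2 fold changes with UVB, 0 changed direction in 216 alternative values and in 476 values with a rat left out. Leaving out a rat of the other genotype cannot move a log2 fold change. Nor can a change of the filter, of the variance trend or of the groups in the fit. Many of these values were therefore fixed beforehand. TPM does not give the depth of each rat, groups hold 3 to 5 rats, and values are relative to all other transcripts of the sample.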
